A study of Mus musculus with 8 samples.

Results

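The genes described here are the 3 retinoid X receptors (Rxra, Rxrb, Rxrg) and 7 nuclear receptors that pair with them: the retinoic acid receptors Rara, Rarb and Rarg, the liver X receptors Nr1h2 and Nr1h3, the fatty acid receptor Ppard and the thyroid hormone receptor Thra. They are 10 of the 55487 genes in the table, and all 10 were among the 15056 genes with enough counts to be tested. The set was chosen by measured values, since an earlier reading of these libraries had shown the fall of Rxrg between the same groups. The members' levels and differences are therefore given as a description, without p-values.

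The 8 libraries are of polyadenylated RNA from the sciatic nerve of mice on postnatal day 6. The 4 control libraries (Ctrl 1 to 4) came from CNP+/+ Cdk7lox/lox animals, which carry floxed Cdk7 and no Cre. The 4 CNP-Cdk7cKO libraries came from CNPcre/+ Cdk7lox/lox animals, which carry the same floxed Cdk7 and Cre recombinase at 1 Cnp allele. Cnp is a gene of myelin-forming glia, and this Cre is used to remove Cdk7 in Schwann cells, which ensheath and myelinate the axons of nerves; the nerve also holds other cells. Floxed Cdk7 is shared by both groups, and the knockout group also has 1 unmodified Cnp allele fewer. The libraries held 16897242 to 21527891 estimated counts. Nothing in the labels says outright that each library is a separate animal, so p-values cover only the spread among the 8 libraries.

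Nuclear receptors are transcription factors whose activity is set by small fat-soluble ligands. A retinoid X receptor binds DNA as the shared partner of a second receptor, so retinoic acid, oxysterols, fatty acids and thyroid hormone are all read by pairs that contain one. Such pairs bind repeats of the sequence AGGTCA, and the distance between the repeats favours one partner over another. In myelinating glia these receptors are known for roles in lipid supply and in the timing of differentiation, and thyroid hormone and retinoid X receptor gamma are known for their part in myelin formation by oligodendrocytes, the myelin-forming glia of the brain.

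The promoters of the receptors differ in composition, and 4 are printed because they belong to the member that differed most (Rxrg, with both of its annotated starts), to the retinoid X receptor with the highest level (Rxra) and to the member with a paired retinoid receptor motif (Rarb). RefSeq (GRCm38.p6) gave 17 start sites for 9 of the 10 members; Thra had no entry. Each sequence is the 250 bases before the start, 5′ to 3′ on the gene's strand, and capitals mark motif matches.

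Rxrg start 1: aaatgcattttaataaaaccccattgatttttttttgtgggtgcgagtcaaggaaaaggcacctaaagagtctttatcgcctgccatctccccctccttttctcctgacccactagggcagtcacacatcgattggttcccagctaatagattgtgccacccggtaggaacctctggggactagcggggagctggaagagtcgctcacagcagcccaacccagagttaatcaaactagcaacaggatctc
Rxrg start 2: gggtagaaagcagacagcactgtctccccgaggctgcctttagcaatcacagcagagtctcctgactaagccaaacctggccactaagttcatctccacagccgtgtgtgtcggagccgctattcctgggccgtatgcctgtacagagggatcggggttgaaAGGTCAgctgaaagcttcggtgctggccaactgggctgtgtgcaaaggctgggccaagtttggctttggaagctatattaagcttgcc
Rxra start 1: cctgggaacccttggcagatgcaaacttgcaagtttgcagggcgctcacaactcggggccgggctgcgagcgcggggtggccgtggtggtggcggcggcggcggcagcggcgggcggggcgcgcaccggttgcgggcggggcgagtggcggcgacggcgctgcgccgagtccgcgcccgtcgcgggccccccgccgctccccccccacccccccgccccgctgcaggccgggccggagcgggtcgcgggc
Rarb start 1: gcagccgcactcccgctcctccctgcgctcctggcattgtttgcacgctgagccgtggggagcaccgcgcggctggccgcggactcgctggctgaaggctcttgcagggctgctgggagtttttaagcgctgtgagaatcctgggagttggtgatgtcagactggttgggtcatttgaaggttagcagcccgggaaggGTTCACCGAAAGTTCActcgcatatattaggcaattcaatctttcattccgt

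The first Rxrg window (chr1:167598112-167598361, plus strand) was 49.2% G or C with 6 CpG, and the second (chr1:167618015-167618264, plus strand) was 55.2% with 7 CpG. The median of 32841 RefSeq promoters was 52.4% and 6 CpG, so both Rxrg windows lay near the middle. The Rxra window (chr2:27676951-27677200, plus strand) was 81.2% G or C with 40 CpG, and 99.1% of promoters had less G or C. The Rxrb windows were likewise rich, at 69.2% and 82.4% with 31 and 39 CpG. The Rarb window (chr14:16575477-16575726, minus strand) was 58% G or C with 16 CpG.

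On both strands, AGGTCA was found in 3 of the 17 windows and in 14% of all promoters. One match lay 88 to 83 bases before the second Rxrg start, the second Rxra start (chr2:27709042-27709291) held 2, and Rarg held 1. A direct repeat of 2 copies of GGTCA or GTTCA with a gap of 6 bases, the core of the spacing known for retinoic acid receptor pairs, was found in 1 window, that of Rarb, at 52 to 37 bases before its start, and in 0.21% of all promoters. The same cores with a gap of 2 or 5 bases, as for PPAR and for thyroid and liver X receptor pairs, were in 0 of the 17 windows and in 0.317% and 0.161% of promoters. No matches in these windows overlapped each other. The letters ACAAAG (the core bound by Sox10) were in 1 window, at Rara, and in 16.5% of promoters, and GTGGGCG (the core bound by Egr2) was in 1 window, at Ppard, and in 7.02% of promoters. The deposited counts are per gene, so which start a transcript used was not measured.

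Rxrg was the member with the largest difference. Retinoid X receptor gamma is the family member with the narrowest tissue range, and it lies at chr1:167598384-167639623 (GRCm38, plus strand, 2297 bases of exon). Levels are given in CPM (counts relative to the library total, with TMM scaling). Rxrg stood at 17.1, 16.7, 14 and 18 CPM across Ctrl 1 to 4, against 3.16, 2.85, 5.49 and 4.61 CPM across CNP-Cdk7cKO 1 to 4. Every knockout library was below every control library, and the highest knockout value was well under the lowest control value. The means were 16.5 ± 1.75 and 4.03 ± 1.24 CPM (SD, n = 4), 75.5% less in the knockout nerves, with a log2 fold change (CNP-Cdk7cKO over Ctrl) of -2.03 ± 0.18 (SE). These values rest on 280 to 370 counts per control library and 59 to 110 per knockout library. The spread relative to the mean was wider in the knockout group, with a coefficient of variation of 30.8% against 10.6%. The knockout libraries fell into a lower pair, CNP-Cdk7cKO 1 and 2, and a higher pair, CNP-Cdk7cKO 3 and 4. In a bulk nerve, fewer cells that express a gene and less RNA per cell cannot be told apart.

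The other retinoid X receptors overlapped between the groups. Rxra, the broadly expressed alpha receptor (chr2:27676440-27762957), stood at 100.1, 94, 97.3 and 97.6 CPM across Ctrl 1 to 4, against 87.9, 91, 99.1 and 107.6 CPM across CNP-Cdk7cKO 1 to 4. Its means were 97.2 ± 2.52 and 96.4 ± 8.84 CPM (SD, n = 4), or on the log2 scale a fold change of -0.01 ± 0.06 (SE), with the knockout libraries spread to both sides of the controls. Rxrb, the beta receptor (chr17:34031812-34038399), stood at 66.2, 57, 65.1 and 61.7 CPM across Ctrl 1 to 4, against 55.1, 61.3, 60.5 and 62.7 CPM across CNP-Cdk7cKO 1 to 4. Its means of 62.5 ± 4.12 and 59.9 ± 3.32 CPM (SD, n = 4) differed by less than their spread (log2 fold change -0.06 ± 0.06, SE).

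**Figure D1:**
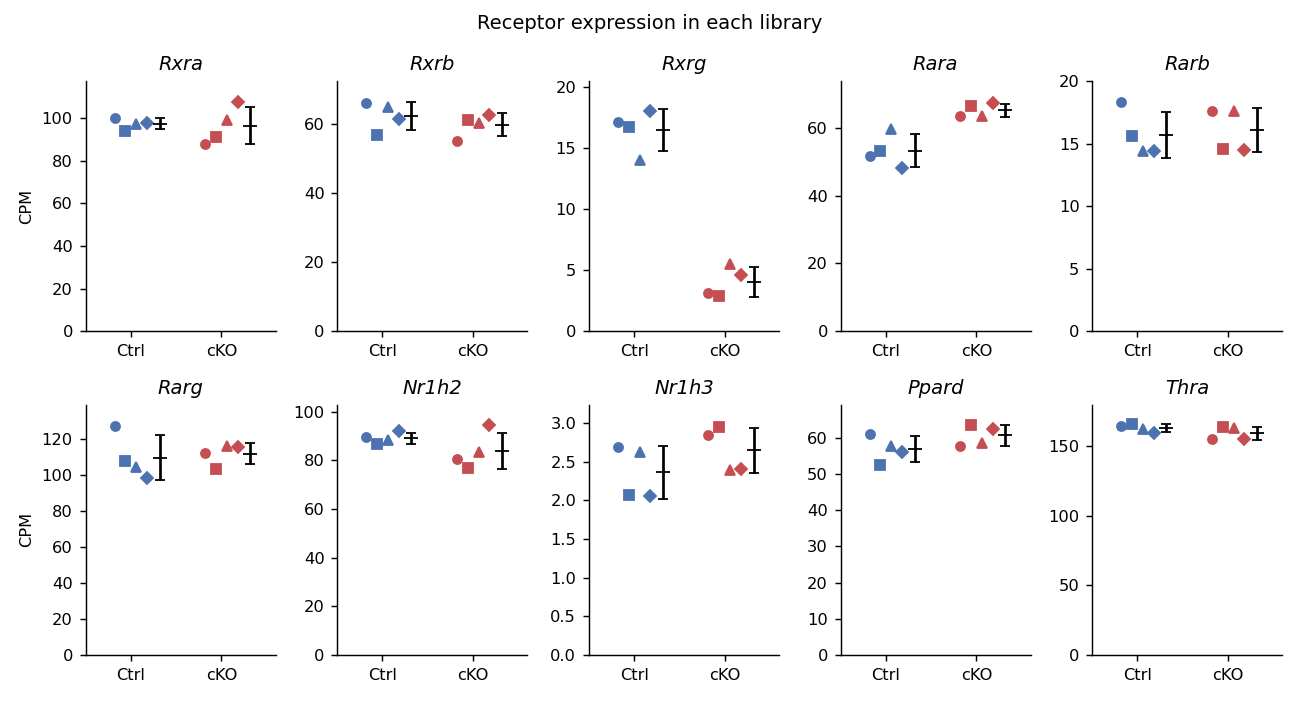
CPM of each receptor (y axis, from 0, with its own scale per panel) in the 4 Ctrl (blue) and 4 CNP-Cdk7cKO (red, cKO) libraries; circles, squares, triangles and diamonds are replicates 1 to 4, and the bars are mean ± SD. Rxrg separates the groups by a wide gap, Rara by a narrow one, and the other 8 receptors overlap.

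Levels of different genes were compared as CPM per kilobase (kb) of exon. On that scale the 3 retinoid X receptors together measured 42.4, 38.8, 40.3 and 41.3 CPM per kb in Ctrl 1 to 4 and 31.3, 33.3, 35.8 and 37.5 CPM per kb in CNP-Cdk7cKO 1 to 4. Every knockout sum was below every control sum (40.7 ± 1.53 against 34.5 ± 2.73 CPM per kb, SD, n = 4). Rxrg made up 17.6, 18.7, 15.1 and 19% of the control sums and 4.38, 3.72, 6.68 and 5.36% of the knockout sums. The mean share of Rxrg was 17.6 ± 1.77% in controls and 5.04 ± 1.29% in knockouts (SD, n = 4), while that of Rxra was 43.8 ± 0.58% and 51.2 ± 1.11% and that of Rxrb 38.7 ± 1.65% and 43.8 ± 1.90%. A share rises when another member is lower, and the levels of Rxra and Rxrb themselves overlapped. The sums and shares hold Rxrg, whose fall entered the choice of the set, so their separation is no separate result. Most retinoid X receptor transcript was Rxra and Rxrb in both groups.

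**Figure D2:**
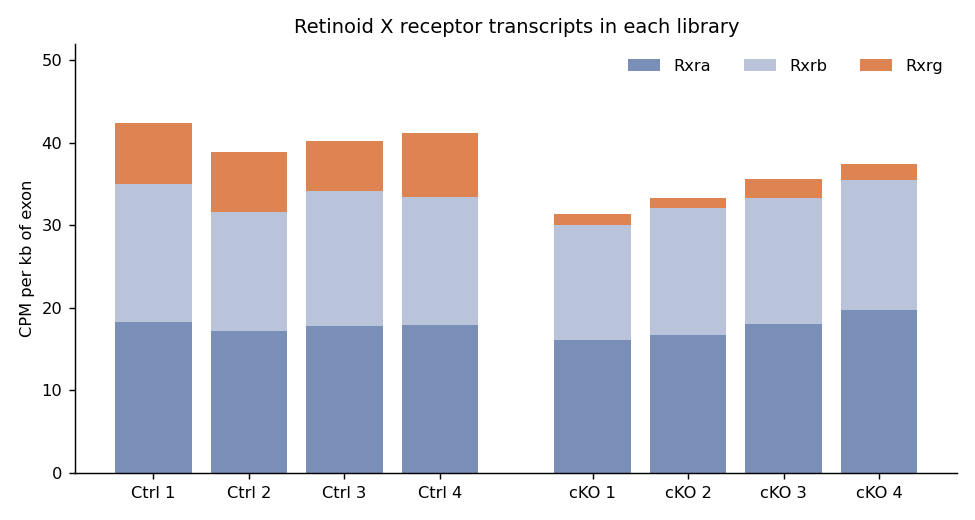
CPM per kb of exon (y axis, from 0) of Rxra, Rxrb and Rxrg stacked for each Ctrl and CNP-Cdk7cKO (cKO) library. Rxrg is 15.1 to 19% of the control bars and 3.72 to 6.68% of the knockout bars, and the Rxra and Rxrb segments overlap in height between the groups.

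Schwann cell markers moved with Rxrg, by less. The sum of the 10 markers was 79300 to 89368 CPM in controls and 52948 to 60004 CPM in knockouts, and 7 of the 10 were called lower, the median being -0.36 on the log2 scale. The largest difference among the 10 was that of Cdh19 at -0.81 ± 0.15 (SE), against -2.03 for Rxrg. Sox10, the transcription factor that defines the lineage, measured 734.8 ± 53 and 665 ± 29.7 CPM (SD, n = 4) and was not called (edgeR quasi-likelihood, Benjamini-Hochberg adjusted p = 0.119). Relative to Sox10, Rxrg measured 21.1, 23.2, 19.5 and 26.1 CPM per 1000 Sox10 CPM in Ctrl 1 to 4 and 4.96, 4.43, 7.97 and 6.66 in CNP-Cdk7cKO 1 to 4. These ratios did not overlap and their means were 22.5 ± 2.85 and 6.00 ± 1.62 (SD, n = 4). Per 1000 CPM of the marker sum, Rxrg was 0.176 to 0.223 CPM in controls and 0.052 to 0.0972 CPM in knockouts, with means of 0.200 ± 0.0203 and 0.0714 ± 0.0201 (SD, n = 4). The groups did not overlap on either scale, and the difference was smaller relative to the marker sum than relative to Sox10. Rxrg was chosen for its fall in these libraries. Neither the separation of these ratios nor the larger fall of Rxrg than of the markers is therefore a separate result.

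Retinoic acid receptors did not share the fall. Rara, the alpha receptor (chr11:98927818-98974942), stood at 51.7, 53.2, 59.8 and 48.2 CPM across Ctrl 1 to 4, against 63.6, 66.4, 63.6 and 67.4 CPM across CNP-Cdk7cKO 1 to 4. The groups did not overlap, and the means were 53.2 ± 4.86 and 65.2 ± 1.96 CPM (SD, n = 4), 22.5% more in the knockout nerves (log2 fold change 0.29 ± 0.06, SE). Rarg, the gamma receptor (chr15:102234938-102257517, minus strand), stood at 127, 108, 104 and 98.1 CPM across Ctrl 1 to 4, against 112, 103, 116 and 115 CPM across CNP-Cdk7cKO 1 to 4, and the highest value of all was in Ctrl 1. Its means were 109 ± 12.5 and 112 ± 5.93 CPM (SD, n = 4; log2 fold change 0.03 ± 0.08, SE). Rarb, the beta receptor, itself known as a gene induced by retinoic acid (chr14:16430839-16819156, minus strand), stood at 18.3, 15.6, 14.4 and 14.4 CPM across Ctrl 1 to 4, against 17.6, 14.6, 17.6 and 14.5 CPM across CNP-Cdk7cKO 1 to 4 (log2 fold change 0.04 ± 0.10, SE). Of its exon bases, 1793 (34.06%) overlap Top2b on the opposite strand. The library kit keeps strand, but whether the counting used it is not given in the sources used here, so reads of Rarb and Top2b may not be told apart.

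The partners that read oxysterols, fatty acids and thyroid hormone overlapped between the groups as well. Nr1h2, the broadly expressed liver X receptor beta, ranged from 86.6 to 92 CPM in controls and from 76.9 to 94.3 CPM in knockouts (log2 fold change -0.09 ± 0.06, SE). Nr1h3, liver X receptor alpha, ranged from 2.05 to 2.69 CPM in controls and from 2.39 to 2.95 CPM in knockouts (0.17 ± 0.17 on the log2 scale, SE), and its low counts leave the widest error but that of Rxrg. Ppard, the delta receptor for fatty acids, ranged from 52.5 to 61.1 and from 57.9 to 63.5 CPM (0.09 ± 0.06 on the log2 scale, SE). Thra, the alpha thyroid hormone receptor (chr11:98740638-98769006), ranged from 160 to 166 CPM in controls and from 155 to 164 CPM in knockouts (-0.03 ± 0.04 on the log2 scale, SE), the narrowest spread relative to the mean. Of its exon bases, 263 (5.7%) overlap Nr1d1 on the opposite strand, with the same limit as for Rarb.

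Ordered by level per kb of exon, Thra was the highest member in control nerves at 35.4 ± 0.60 CPM per kb (SD, n = 4). Nr1h2 and Rarg followed at 26.6 and 25.6 CPM per kb and overlapped each other, and below them came Rxra at 17.8, Rxrb at 15.7 and Rara at 12.2 CPM per kb, which did not. Ppard at 7.57 and Rxrg at 7.17 CPM per kb overlapped, and Rarb at 2.98 and Nr1h3 at 0.938 CPM per kb were lowest. In the knockout nerves Rxrg, at 1.75 ± 0.54 CPM per kb (SD, n = 4), ranked 9 of 10, between Rarb at 3.05 and Nr1h3 at 1.05 CPM per kb, and its libraries overlapped neither. Rara, at 14.9 CPM per kb, then overlapped Rxrb at 15.1 CPM per kb.

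By the threshold used for all genes (edgeR quasi-likelihood, Benjamini-Hochberg adjusted p under 0.05), 2 of the 10 members were called, Rxrg lower and Rara higher. Of all tested genes 11.7% were called, 6.6% lower and 5.07% higher. The groups did not overlap for the same 2 members, and for 18.8% of all tested genes. Since this contrast entered the choice of the set, nothing is read from these counts. The members' median log2 fold change was 0.01, and that of all tested genes was 0.

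Sex and muscle content differed between the groups. By Xist and Y-linked genes, Ctrl 1 and the 4 CNP-Cdk7cKO libraries were female and Ctrl 2 to 4 were male, and the sum of 20 skeletal muscle markers was 629 to 6154 CPM in controls and 115 to 726 CPM in knockouts. Within the controls, Rxrg was 17.1 CPM in the female Ctrl 1 and 14 to 18 CPM in the male libraries. In the female libraries alone the log2 fold change of Rxrg was -2.09 ± 0.28 (SE, 1 control library, assumed to vary as the others). It was -2.08 ± 0.27 with Xist as a covariate and -2.29 ± 0.30 with the muscle marker covariate. Xist measured 0 to 0.103 CPM in Ctrl 2 to 4 and 280.6 to 331.1 CPM in the other libraries. The Xist fit therefore also rests on Ctrl 1 against the knockouts, and is not a check separate from the female fit. Rara kept its direction in these fits, at 0.33 ± 0.09, 0.33 ± 0.11 and 0.23 ± 0.11 (SE), though its call at the threshold for all genes ended in each. Rarb and Rarg, highest among controls in Ctrl 1, changed sign in all 3: Rarb was -0.19 in each, and Rarg -0.19, -0.19 and -0.23. Nr1h3 and Ppard changed sign in the female libraries alone and with Xist as a covariate, and no direction is given for these 4 receptors.

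**Figure D3:**
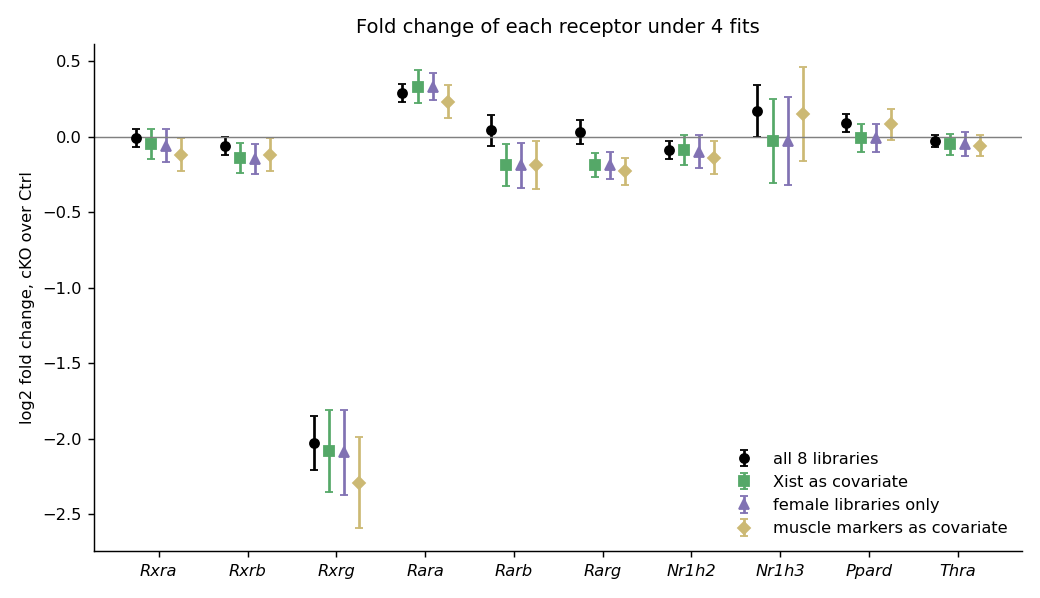
log2 fold change (CNP-Cdk7cKO over Ctrl, y axis) of each receptor with its SE in 4 fits: all 8 libraries, Xist as a covariate, the female libraries alone, and the skeletal muscle markers as a covariate. Rxrg stays between -2.03 and -2.29, Rara stays above 0, and Rarb and Rarg move from above 0 to below it.

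Among 48 nuclear receptor genes listed, members included, 34 were tested. Of these 5 were called lower and 1 higher, beside 6.6% lower and 5.07% higher of all tested genes. The calls include Rxrg and Rara, from whose calls nothing is read. Rxrg had the lowest fold change of the 34, which is no separate result, since its fall entered the choice of the set. Thrb, the beta thyroid hormone receptor, stood at 2.26, 2.22, 2.25 and 2.00 CPM across Ctrl 1 to 4, against 1.45, 0.967, 0.748 and 1.13 CPM across CNP-Cdk7cKO 1 to 4. It fell in every knockout library relative to every control library, by 1.02 ± 0.22 on the log2 scale (SE; quasi-likelihood test of edgeR, adjusted p = 0.0138), and was the 1 gene called among 5 tested of 9 listed further partners of retinoid X receptors. Nr4a1 and Nr4a2, orphan receptors that can pair with a retinoid X receptor (both named after their values were seen), measured 130.8 and 59.4 CPM in controls and 128 and 59.2 CPM in knockouts. Of 19 other nuclear receptors tested, 3 fell and 0 rose (15.8% called, beside 11.7% of all tested genes). The median of the 19 was -0.20 on the log2 scale. Those that fell were Nr2f1 (-0.33 ± 0.07, SE), a repressor of retinoid responses in many tissues, Nr2c2 (-0.23 ± 0.05) and the clock repressor Nr1d2 (-0.36 ± 0.09).

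The genes that supply the ligands were listed by ligand. Of 15 tested genes of retinoid uptake, synthesis and breakdown, 2 fell and 0 rose (13.3% called, beside 11.7% of all tested genes). They were the retinal reductases Rdh11, from 55.9 ± 1.72 to 44.7 ± 2.23 CPM (SD, n = 4; edgeR adjusted p = 0.00266), and Dhrs3, from 49.7 ± 2.87 to 41.0 ± 3.60 CPM (edgeR adjusted p = 0.0257), which return retinal to retinol. Of 5 tested genes of thyroid hormone transport and deiodination, Crym, which binds thyroid hormone in the cytosol, was the 1 that rose (20% called). It stood at 3.18, 4.76, 6.15 and 5.17 CPM across Ctrl 1 to 4, against 9.98, 10.5, 8.28 and 9.32 CPM across CNP-Cdk7cKO 1 to 4, without overlap (log2 fold change 0.98 ± 0.17, SE; edgeR adjusted p = 0.00505). Among 4 tested genes of oxysterol synthesis edgeR called 0 (2 at an unadjusted p under 0.05), as did DESeq2 and voom. Among 16 coactivators and corepressors edgeR called 0 (5 at an unadjusted p under 0.05), DESeq2 0 and voom 1. Cyp7b1 and Cyp27a1, hydroxylases of oxysterol metabolism, measured 49.2 and 9.18 CPM in controls and 45.5 and 10.1 CPM in knockouts, and the corepressor gene Hdac3 72.1 against 78.9 CPM.

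The target genes of the pairs were listed by ligand as well. Of 9 tested retinoic acid targets 1 fell (Dhrs3) and 0 rose (11.1% called, beside 11.7% of all tested genes). The median of the 9 was 0.17 on the log2 scale. Of 12 tested liver X receptor targets 4 fell and 2 rose (50% called), with a median of -0.22. Those that fell were Scd1 and Fasn, enzymes of fatty acid synthesis, the cholesterol exporter Abca1 and the ubiquitin ligase Mylip, and those that rose were the lipid carriers Apoe and Pltp. Scd1 stood at 484.2, 470.5, 439.5 and 342.3 CPM across Ctrl 1 to 4, against 243.9, 240.4, 207.1 and 192.5 CPM across CNP-Cdk7cKO 1 to 4 (log2 fold change -0.97 ± 0.11, SE; edgeR adjusted p = 0.000414). Every knockout value of Scd1 was below every control value, while Apoe was higher in every knockout library, at 566.7 to 665.2 CPM in controls and 703.2 to 839.3 CPM in knockouts (0.34 ± 0.06 on the log2 scale, SE; edgeR adjusted p = 0.00659). Apoe and Pltp are also made by macrophages, whose 10 markers had 4 called higher and summed to 400 to 522 CPM in controls and 478 to 600 CPM in knockouts, and their part in the result was not tested.

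Of 13 tested targets of the fatty acid receptors (PPAR) 4 fell and 0 rose (30.8% called, beside 11.7% of all tested genes). The median of the 13 was 0.02 on the log2 scale. Those that fell were Ucp3, Fabp3, Pdk4 and Acadl, genes of fatty acid use that muscle expresses strongly. DESeq2 called 4 of the 13 and voom 2 (Ucp3 and Acadl). Fabp3 measured 3.86, 9.46, 14.9 and 29.4 CPM in Ctrl 1 to 4 and 1.05 to 3.53 CPM in knockouts, beside muscle marker sums of 629, 2066, 1432 and 6154 CPM in Ctrl 1 to 4. With the muscle markers as a covariate the log2 fold change of Fabp3 moved from -2.75 ± 0.56 to -0.30 ± 0.33 (SE). That of Pdk4 moved from -1.76 ± 0.39 to -0.34 ± 0.47 and that of Ucp3 from -0.94 ± 0.19 to -0.42 ± 0.27. With Xist as a covariate Fabp3, Pdk4 and Ucp3 were -0.83 ± 0.68, -0.88 ± 0.55 and -0.67 ± 0.28. Muscle content and sex both differed between the groups, and their part in these falls was not tested. Of 6 tested thyroid hormone targets Mbp, a myelin protein gene, was the 1 that fell (16.7% called). It went from 29061 ± 1851 to 24936 ± 1105 CPM (SD, n = 4, edgeR adjusted p = 0.013).

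Over all these lists, 99 of 123 genes were tested, 3 rose and 15 fell (18.2% called, beside 11.7% of all tested genes), and the median of the 99 was -0.10 on the log2 scale. Of the 18 calls, 3 held under the Xist covariate (Crym, Scd1 and Mbp), 2 in the female libraries alone and 2 with the muscle marker covariate (Crym and Scd1 in both), and all 18 kept their sign in these 3 fits. Crym was then 1.57, 1.58 and 1.41 on the log2 scale, and Scd1 -1.14, -1.13 and -1.13. Leaving out 1 library ended the calls of Nr1d2, Dhrs3, Abca1, Mylip, Pltp and Acadl in 3, 5, 4, 6, 5 and 6 of 8 cases, with adjusted p of up to 0.0978 (edgeR), and each of the 8 libraries ended at least 1 of them. The other calls held in all 8 cases. By voom with quality weights 16 of the 18 calls held, and those of Fabp3 and Pdk4 did not.

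**Figure D4:**
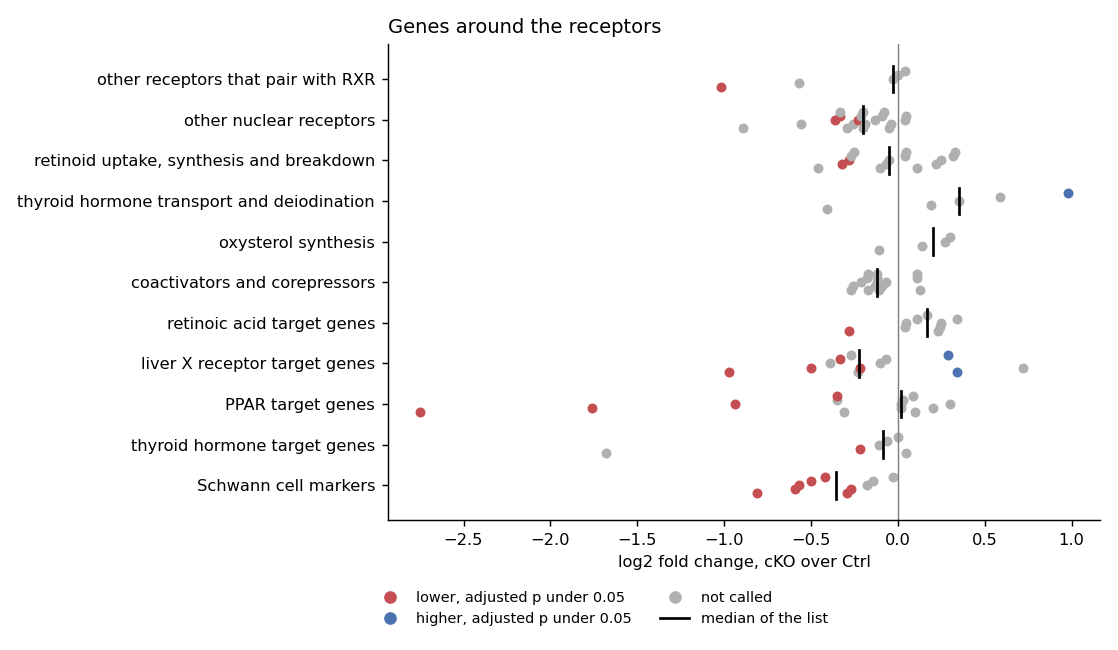
log2 fold change (CNP-Cdk7cKO over Ctrl, x axis) of each tested gene around the receptors, 1 row per list, with Schwann cell markers below; red and blue are genes called lower and higher (edgeR, adjusted p under 0.05), grey genes were not called, and black bars are list medians. The list medians lie between -0.36 and 0.35, and the liver X receptor targets hold both red and blue points.

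Neighbours of Rxrg on chromosome 1 were also compared, and those given here showed no difference of that size. Lmx1a, 49614 bases to the right, measured 0.604 ± 0.212 and 0.610 ± 0.153 CPM (SD, n = 4). Mgst3, 204543 bases to the left, measured 41.1 ± 2.09 and 36.3 ± 2.16 CPM (log2 fold change -0.18 ± 0.06, SE, edgeR adjusted p = 0.0751). Every knockout value of Mgst3 was below every control value, and the groups did not overlap for 18.8% of all tested genes. Lrrc52, 131604 bases to the left, was not tested at a mean of 0.0866 CPM in Ctrl.

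The genes most like Rxrg were sought among 12889 genes by Pearson r of log2 CPM over the 8 libraries. Among the most alike were Cdk19 (r = 0.992), Vwa1 (0.992), Lgi1 (0.991) and Ccn3 (0.991). Over 2 separate groups such an r mostly measures the difference between the groups, and these 4 genes had log2 fold changes of -0.34 (Cdk19) to -0.83 (Lgi1), smaller than that of Rxrg. With the group means removed, the most alike were Thoc7 (r = 0.990), Spdl1 (0.988) and Matn4 (0.980). Matn4, a gene of the extracellular matrix, was alike in both ways: it stood at 50.8, 47.1, 42.6 and 49.5 CPM across Ctrl 1 to 4, against 22.1, 20, 34.3 and 27.3 CPM across CNP-Cdk7cKO 1 to 4. As for Rxrg, its lowest control library was Ctrl 3 and its highest knockout library was CNP-Cdk7cKO 3. That order goes with the choice of Matn4 by its r and is no further likeness. These values are a description over 8 points that share group, depth and tissue makeup.

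The targeted gene Cdk7 measured 21.5 ± 0.696 CPM in controls and 11.6 ± 1.35 CPM in knockouts (SD, n = 4; edgeR adjusted p = 0.000181), and Cnp, whose locus carries Cre, 3134 ± 137 and 1389 ± 61.6 CPM (edgeR adjusted p = 3.98e-07). Among markers of other cells, 3 of 9 fibroblast and perineurial markers were called higher (sums of 29397 to 33433 CPM in controls and 34264 to 38653 CPM in knockouts), 1 of 9 endothelial and mural markers lower (526 to 685 and 505 to 616 CPM), 1 of 5 tested adipocyte markers lower (27.2 to 84.0 and 21.4 to 62.3 CPM), and 0 of 5 erythroid markers were called by edgeR, DESeq2 or voom, with 0 at an unadjusted p under 0.05 (742 to 2160 and 925 to 1460 CPM). No listed marker was at 0 in all libraries.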

How the data were processed

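Stranded libraries of polyadenylated RNA were made from sciatic nerves, per the labels. The authors made the deposited table of estimated counts with STAR and Salmon on GRCm38, per the submitters' processing notes, which name no versions or settings. A fractional part was present in 8.29% of the values, which were rounded. Of 55487 gene identifiers 55141 matched a symbol. Genes passing filterByExpr (minimum count 10, minimum total 15) were scaled with TMM factors and tested by the quasi-likelihood method of edgeR 4.0.16 (R 4.3.3), with Benjamini-Hochberg adjustment over 15056 genes. limma 3.58.1 (voom) and DESeq2 1.42.0 served as alternatives. The steps were tested on simulated data. log2 CPM used a prior count of 2. Exon lengths came from GENCODE M21 and promoters from RefSeq.

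The members and the 10 gene lists around them were chosen with earlier results of these data known. Genes were named by a rule that took in all members, Cdk7, Cnp, Xist, up to 3 called genes of the smallest p per list (or the 2 of highest mean CPM where none was called), the 2 most abundant markers per cell type, the nearest 2 protein-coding genes on each side of Rxrg, and the 5 and 3 genes most like Rxrg with and without group means (mean of at least 2 CPM). The calls of all genes, of members and of pathway genes, and the members' fold changes, were repeated under 18 alternatives. Scaling was changed to RLE factors, or to TMM factors computed after mitochondrial, muscle, adipocyte and erythroid genes were set aside. The count filter was dropped, or replaced by at least 1 CPM in 4 libraries. DESeq2 and voom with quality weights were used in place of edgeR. The edgeR fit was also run with the replicate number as a block, with either Xist or muscle markers as covariate, and in the female libraries alone. Each library was also left out in turn. Other genes are named where a result turns on them. Some genes that the rule names are not reported here.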

Additional observations from a re-analysis of the deposited data

Results flagged for a closer look

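The sum of the Schwann cell markers in Ctrl 1 was 89368 CPM and stood apart from the other control libraries, which lay between 79300 and 80740 CPM. Its gap to the nearest library was 0.857 of the group's range, above the critical value of Dixon for 4 samples. Of the 26 groups of values examined in this way, chance alone would give about 1.3 such cases, or 1 in 20. Rxrg in Ctrl 1 was 17.1 CPM, inside the range of the other controls.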

How the results depend on the processing

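Across 18 alternatives (8 that leave out a library, 10 others), the log2 fold change of Rxrg was -2.29 to -1.89. Of the 180 member fold changes, 15 changed sign and 3, all of Rara, lost their call. Since this contrast entered the choice of the members, nothing is read from their calls. With Xist as a covariate, in the female libraries alone and with the muscle marker covariate, the genes called numbered 238, 114 and 261 in place of 1757, the members called 1 in each, and the pathway genes called 3, 2 and 2 in place of 18. The changed signs in these fits were Rarb at -0.19 in all 3, Rarg at -0.19, -0.19 and -0.23, and, with Xist and in the female libraries, Nr1h3 at -0.03 and Ppard at -0.01 in both. The female comparison has 1 control library, the Xist fit rests on that same library, and the cause was not tested. Leaving out a library gave 1123 (without Ctrl 2) to 1481 genes called and ranges of -0.07 to 0.03 for Rxra, -0.01 to 0.12 for Rarb and -0.02 to 0.11 for Rarg. Of 180 counts of calls per list under the alternatives, 139 stayed within 1.5 times and 41 moved.

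With the replicate number as a replicate block, 1608 genes were called (682 higher, 926 lower), 2 members and 22 pathway genes. Deviations of same-numbered libraries from their group means correlated at 0.044, 0.076, 0.127 and 0.009. By these deviations Ctrl 1 to 4 were closest to CNP-Cdk7cKO 3, 4, 3 and 2, so the numbers are taken as names. Depth limits Nr1h3 most, at 2.05 to 2.95 CPM.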
